A study of Nannochloropsis oceanica with 6 samples.

Results

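Knockout line 1 was compared with knockout line 2 of NoPAC4 in Nannochloropsis oceanica, using 4 of the 6 polyA RNA libraries in the series. The members were chosen by sample title, 2 libraries from line 1 and 2 from line 2, and 2 wild-type libraries (WT) are given beside them as values only. Every group was strain IMET1 grown in low light for 5 days at 50 µmol photons m-2 s-1, lit without a break. The labels give 23 °C for this culture and 25 °C for cultivation in general. Both lines carry the genotype NoPAC4 knockout, and WT carries none. The labels do not say how either line was made, whether each is 1 clone, or whether replicates were separate cultures, so a p-value here speaks only of the spread among the libraries. NoPAC4 itself was not analysed here, because the files pair no nuclear ID with a gene name.

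Nannochloropsis oceanica is a single-celled marine alga that stores oil and is rich in long-chain polyunsaturated fatty acids. Independent lines of the same knockout are kept so that a response shared by them can be told from one that belongs to a single line. Most transcripts of the plastid and the mitochondrion lack the long polyA tail on which such libraries are built, so organelle genes receive few reads. The question here was which genes, and which runs of neighbouring gene IDs, separate the lines.

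Line 1 libraries held 14798569 and 15050133 reads, those of line 2 held 13956854 and 14052410, and those of WT 16311239 and 16045361. The table listed 10493 IDs, of which 9654 passed the filter on low counts in the 4 knockout libraries and 839 did not. Of these IDs, 10333 were nuclear under 30 prefixes (NO01 to NO30), 125 were plastid and 35 mitochondrial. Positions below count the IDs of a prefix by the number in the ID, and no source says that this is their order along a chromosome. Levels are CPM, counts scaled to a common library total with TMM factors, which hold the bulk of genes at equal level in the libraries. A difference is the log2 ratio of line 1 over line 2, positive where line 1 was higher.

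Few genes were called as different between the lines, and 6 of them lay together at the ends of 2 ID prefixes. Of 9654 tested genes, 12 were called between the lines (0.124%) by edgeR's quasi-likelihood test at a Benjamini-Hochberg adjusted p below 0.05. Line 1 was higher in 8 of them (0.0829%) and lower in 4 (0.0414%). The next gene in order had an edgeR adjusted p of 0.0708, and 1645 genes (808 higher, 837 lower) had an unadjusted p below 0.05. Of the 12 genes, 4 were at the end of the IDs of prefix NO06 and 2 near the start of NO18. The other 6 stood singly in NO05, NO08, NO09, NO10, NO27 and NO28.

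The count of calls depended on single libraries and on the model. It was 16 when line 1 replicate 1 was left out, and 197 when line 1 replicate 2 was. It was 1505 when line 2 replicate 1 was left out and 67 when line 2 replicate 2 was, each fit with 1 residual degree of freedom. With WT in the same fit edgeR called 0 genes, with 364 at an unadjusted p below 0.05, against 156 by DESeq2 and 12 by limma-voom on the 4 knockout libraries. The likelihood ratio test called 398 genes there, and the fit with the replicate number as a block 1346.

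Most differences were small. The middle 90% of genes lay between -0.40 (5th percentile) and 0.38 (95th percentile), and 76 genes differed more than 2-fold (36 higher in line 1, 40 lower). Among these 76 genes the median level was 1.1 CPM, against 46.2 CPM over all tested genes, and 66 had a mean under 5 CPM. The spread shrank with level, with an SD of the log2 difference of 0.43, 0.21 and 0.20 in the low, middle and high of 3 equal groups by CPM, which held 5, 5 and 2 of the called genes. Across 7105 genes of at least 20 CPM, replicates of line 1 scattered around each other with an SD of 0.16 on the log2 scale and those of line 2 with 0.22. The 4 pairings of a line 1 with a line 2 library gave SDs from 0.19 to 0.31.

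**Figure D1:**
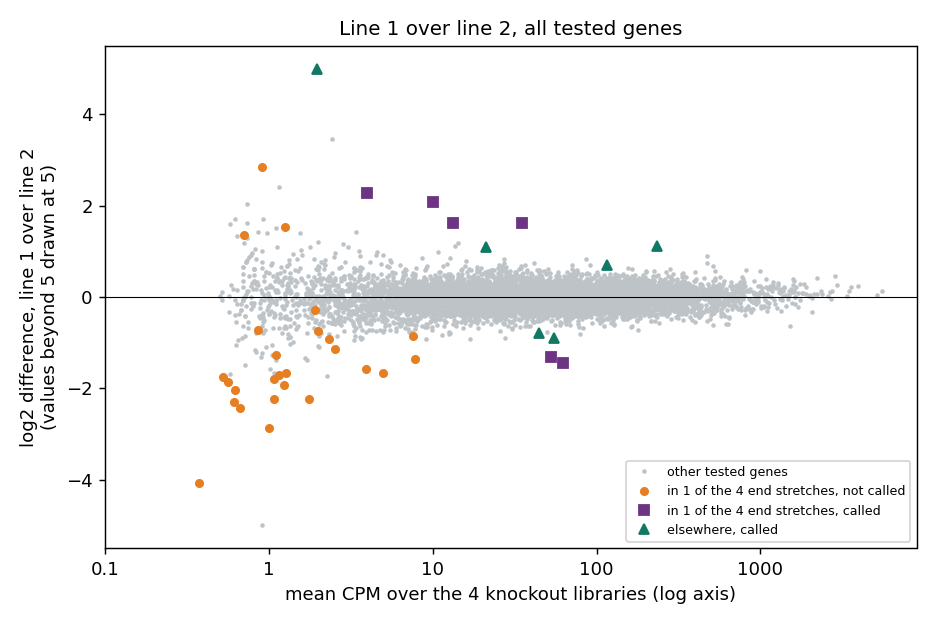
Each point is 1 of the 9654 tested genes, with the mean CPM over the 4 knockout libraries (log axis) across and the log2 difference of line 1 over line 2 up; values beyond 5 are drawn at 5. Most genes lie near 0, the 6 called genes at NO06 and NO18 (squares) and the 6 elsewhere (triangles) stand off from genes of like level, and genes at the 4 prefix ends that were not called (circles) have few reads.

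The end of prefix NO06 held 4 of the 8 genes called higher in line 1, and none of these 4 had a read in either WT library. NO06G04580 had 56.2 and 50.1 CPM in line 1, 15.7 and 18.5 CPM in line 2, with 0 and 0 in WT. NO06G04620 had 16.20 and 16.29 CPM in line 1, 4.11 and 3.54 CPM in line 2, with 0 and 0 in WT. Both line 1 libraries were above both line 2 libraries for each gene, with no overlap. NO06G04580 averaged 53.1 ± 4.26 CPM in line 1 and 17.1 ± 1.98 CPM in line 2 (SD, n = 2 each), a log2 difference of 1.63 ± 0.12 (SE; adjusted p = 0.00125, edgeR). NO06G04620 averaged 16.2 ± 0.0632 CPM in line 1 and 3.82 ± 0.407 CPM in line 2 (SD, n = 2 each), a log2 difference of 2.08 ± 0.19 (SE; adjusted p = 0.00255, edgeR). NO06G04620 shares reads with a neighbouring ID. The sum of both was 238 and 248 reads in the line 1 libraries, against 58 and 50 in those of line 2 and 0 and 0 in WT, with a log2 difference of 2.10 (edgeR adjusted p = 0.00185). In bulk RNA a lower level can come from fewer cells with a transcript or from less of it per cell, and these cannot be told apart.

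The last ID of NO06, number 475, had 18.7 and 21.3 CPM in line 1, 6.17 and 6.93 CPM in line 2, with 0 and 0 in WT, which gave a log2 difference of 1.61 ± 0.17 (SE; adjusted p = 0.00652, edgeR). ID 468 had 6.18 and 6.98 CPM in line 1, 1.13 and 1.56 CPM in line 2, with 0 and 0 in WT, which gave a log2 difference of 2.28 ± 0.30 (SE; adjusted p = 0.0239, edgeR). Per length, on the deposited TPM scale, the 4 genes differed widely in level. NO06G04580 averaged 16.6 TPM in line 1 and 5.36 TPM in line 2, and ID 468 averaged 15.9 and 3.22 TPM in the same lines. NO06G04620 averaged 5.83 TPM in line 1 and 1.37 TPM in line 2, and ID 475 averaged 0.867 and 0.284 TPM. Line 1 thus stood 3.06 to 4.87 times above line 2 in genes whose levels per length spanned more than an order of magnitude.

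The last 18 IDs of NO06 were described together, a stretch set from these values and therefore not tested. Of the 18 IDs, 12 had reads in the knockout lines and 8 passed the filter, which in this stretch only IDs expressed in a knockout line could pass. Low IDs could pass through line 1 alone, which favours values above 0. Place 12 had 27 and 20 reads in the line 1 libraries, against 5 and 1 in those of line 2. The 18 IDs summed to 104 and 102 CPM in line 1, 29.9 and 34.7 CPM in line 2, with 2.38 and 1.45 CPM in WT. Line 2 was at 31.4% of the line 1 level. Of the 8 tested IDs, 7 had a log2 difference from 1.36 to 2.85 without overlap between the lines, and over all tested genes line 1 was above without overlap in 24.4%. The other ID, at place 14 of the stretch, had 19 and 32 reads in the line 1 libraries, against 19 and 40 in those of line 2 and 38 and 22 in WT, giving a log2 difference of -0.28 ± 0.46 (SE; adjusted p = 0.802, edgeR). All WT reads of the stretch were on this ID, and its knockout and WT libraries overlapped. In the 10 IDs before the stretch, 9 tested, the median log2 difference was -0.02, with values from -0.64 to 0.92.

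The start of prefix NO18 showed the opposite direction, with line 1 below line 2 and line 2 below WT. NO18G00260 had 35.8 and 30.9 CPM in line 1, 87.0 and 94.9 CPM in line 2, with 128 and 144 CPM in WT. NO18G00270 had 34.3 and 26.3 CPM in line 1, 65.7 and 85.6 CPM in line 2, with 111.5 and 139.8 CPM in WT. For both genes the groups followed the order line 1, line 2, WT without overlap. NO18G00260 averaged 33.4 ± 3.48 CPM in line 1 and 90.9 ± 5.56 CPM in line 2 (SD, n = 2 each), a log2 difference of -1.45 ± 0.11 (SE; adjusted p = 0.00125, edgeR). NO18G00270 averaged 30.3 ± 5.70 CPM in line 1 and 75.7 ± 14.05 CPM in line 2 (SD, n = 2 each), a log2 difference of -1.32 ± 0.16 (SE; adjusted p = 0.0149, edgeR). Their expected counts were not whole and became whole when summed with the ID before them, so the 3 IDs share reads and are not independent. The sum was 1024 and 860 reads in the line 1 libraries, against 2155 and 2551 in those of line 2 and 3830 and 4290 in WT. Its log2 difference was -1.39 ± 0.12 (SE; adjusted p = 0.00185, edgeR). With such sums in place of their members across the table, edgeR called 11 genes or sums (8 higher, 3 lower).

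Counted from its first ID, a stretch of 28 IDs of NO18 summed to 79.8 and 66.0 CPM in line 1, 174 and 206 CPM in line 2, with 272 and 323 CPM in WT. Line 1 was at 38.3% of the line 2 level. Of the 8 IDs that passed the filter, all lay below 0, from -2.03 to -0.74 with a median of -1.51. None overlapped between the lines, where 25.4% of all tested genes had line 1 below without overlap. Low IDs could pass through line 2 alone, which favours values below 0, and the stretch was set from these values. The 20 IDs that did not pass summed to 0.892 and 1.06 CPM in line 1, 1.99 and 2.05 CPM in line 2, with 2.502 and 2.842 CPM in WT, the same order of groups. Just past the stretch, a pair of IDs that share reads summed to 403 and 364 reads in the line 1 libraries, against 277 and 303 in those of line 2 and 138 and 131 in WT. The log2 difference of that pair was 0.34 (edgeR adjusted p = 0.230). Over the 10 IDs after the stretch, 9 tested, the median was 0.08, with values from -0.55 to 0.58.

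The 6 called genes outside these ends stood singly, with no called gene next to them. ID 123 of 443 in NO08 was the most abundant of the 12 genes in CPM, with 317 and 321 CPM in line 1, 153 and 141 CPM in line 2, with 114 and 82.3 CPM in WT, which gave a log2 difference of 1.12 ± 0.10 (SE; adjusted p = 0.00255, edgeR). ID 381 of 430 in NO09 had 28.1 and 29.5 CPM in line 1, 13.6 and 13.2 CPM in line 2, with 9.07 and 10.4 CPM in WT, which gave a log2 difference of 1.11 ± 0.13 (SE; adjusted p = 0.0122, edgeR). ID 123 of 186 in NO27 had 148 and 139 CPM in line 1, 90.8 and 86.7 CPM in line 2, with 37.6 and 44.0 CPM in WT, which gave a log2 difference of 0.69 ± 0.09 (SE; adjusted p = 0.0239, edgeR). In these 3 genes line 1 was highest and WT lowest, and no groups overlapped. The 12 tested IDs nearest on either side of the 6 genes had log2 differences from -0.37 to 0.05. Each of edgeR, DESeq2 and limma-voom called 0 of them, and DESeq2 gave 3 no adjusted p. In edgeR 1 had an unadjusted p below 0.05, against 17% of all tested genes.

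Lower in line 1 were single genes of NO28 and NO05, whose line 2 level overlapped that of WT. ID 177 of 181 in NO28 had 37.4 and 39.6 CPM in line 1, 71.3 and 72.7 CPM in line 2, with 59.0 and 71.5 CPM in WT, which gave a log2 difference of -0.90 ± 0.09 (SE; adjusted p = 0.00652, edgeR). ID 225 of 545 in NO05 had 30.7 and 34.0 CPM in line 1, 55.4 and 56.9 CPM in line 2, with 33.8 and 90.5 CPM in WT, which gave a log2 difference of -0.80 ± 0.10 (SE; adjusted p = 0.0239, edgeR). Without line 1 replicate 1, this gene (edgeR adjusted p = 0.0778) and the called gene of NO27 (edgeR adjusted p = 0.109) were not called, while the other 10 were called whichever single library was left out. In NO05 WT replicate 1 lay among the line 1 libraries and WT replicate 2 above line 2, with a log2 ratio of -1.42 between WT replicate 1 and replicate 2. In 9 of the 12 called genes line 2 lay between line 1 and WT without overlap, an order that 4.91% of all tested genes had. This order needs lines that do not overlap, which held for all 12 called genes and for 49.8% of all tested genes. The 9 include the 4 of NO06 with 0 WT reads and the 2 of NO18 that share reads, so they are not 9 separate cases. The exceptions were these genes of NO28 and NO05 and a gene of NO10.

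The gene of NO10, ID 348 of 413, was read in line 1 and WT but not in line 2. It had 75 and 41 reads in the line 1 libraries, against 0 and 0 in those of line 2 and 34 and 76 in WT. Line 1 averaged 3.94 ± 1.71 CPM (SD, n = 2), at least 37.1-fold higher than a floor of 3 reads over both line 2 libraries (0.106 CPM; edgeR adjusted p = 0.0251). Its counts were not whole, so reads were divided between it and other genes, and the value is uncertain. A gene of NO27, ID 97 of 186, had 0 and 0 reads in the line 1 libraries, against 24 and 27 in those of line 2 and 0 and 43 in WT, and was not called (edgeR adjusted p = 0.0708). Its counts were not whole either. The floor covers counting error only.

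**Figure D2:**
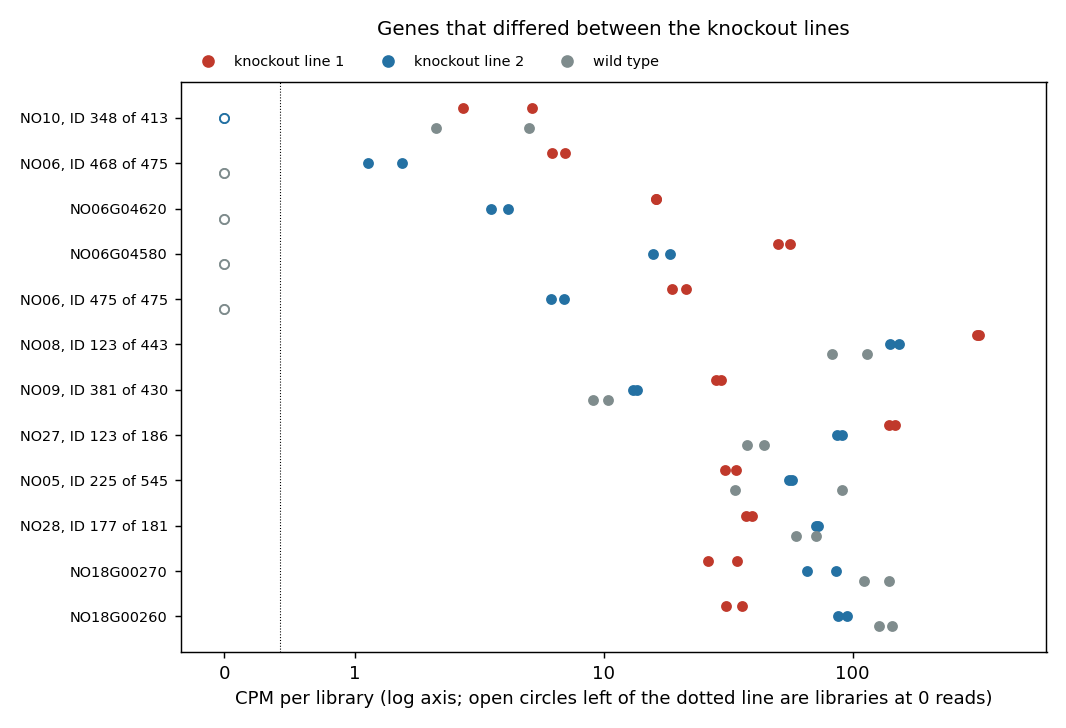
CPM of the 12 called genes in each library on a log axis, with knockout line 1 above knockout line 2 above wild type within each row and open circles for libraries at 0 reads (both replicates coincide there). The lines do not overlap in any row, and the 4 genes of NO06 have 0 reads in wild type.

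To look for neighbouring IDs that differ together, each prefix was divided into windows of 10 tested IDs and reads were summed per window. Of 964 windows, edgeR called 2 (0.207%), the last window of NO06 and the first of NO18. The NO06 window held 7 tested IDs and summed to 686 and 767 reads in the line 1 libraries, against 197 and 228 in those of line 2 and 38 and 22 in WT. Its log2 difference was 1.70 ± 0.18 (SE; adjusted p = 0.00715, edgeR). The NO18 window summed to 1552 and 1340 reads in the line 1 libraries, against 2704 and 3193 in those of line 2 and 4450 and 4971 in WT. Its log2 difference was -1.09 ± 0.11 (SE; adjusted p = 0.00715, edgeR). Upper-quartile scaling left both just short of the threshold (edgeR adjusted p = 0.0535 each), and with all 6 libraries in the fit NO06 had an edgeR adjusted p of 0.0970 and NO18 of 0.158. With windows of 20 IDs edgeR called 0, and with whole-count genes only the NO18 sum was not called (edgeR adjusted p = 0.0680). Without its most abundant gene, which held 40.5% of its reads, the NO18 window was at -0.87 (edgeR adjusted p = 0.115), while the NO06 window stayed called without its own at 1.77 (edgeR adjusted p = 0.0190). The count of called windows was 4 when line 1 replicate 1 was left out and 7 when replicate 2 was. Leaving out line 2 replicate 1 gave 347 and leaving out line 2 replicate 2 gave 30.

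Medians of the genes in a window do not let 1 abundant gene decide. Of the 60 windows at the start or end of a prefix, 4 had a median beyond 0.5 on the log2 scale, and the other 56 lay between -0.23 and 0.17. The 904 inner windows lay between -0.47 and 0.36, and the medians of whole prefixes between -0.04 and 0.03. The 4 windows were those of NO06 (1.61) and NO18 (-1.38), the first of NO30 (-1.81) and the last of NO09 (-1.79). The NO30 and NO09 ends hold low transcripts, and edgeR's quasi-likelihood test and limma-voom did not call their sums. Low IDs there could pass the filter through line 2 alone, which favours medians below 0. The same holds for the start of NO18. At the end of NO06 low IDs could pass through line 1 alone, which favours a median above 0. The NO30 window was at -0.27 ± 0.11 (SE; adjusted p = 0.230, edgeR), and its most abundant gene held 40% of the reads. That gene, ID 30, and ID 23 lie past the first 22 IDs described below, with log2 differences of 0.03 and 0.11. ID 30 had 395 and 388 reads in the line 1 libraries, against 365 and 368 in those of line 2. ID 23 had 390 and 382 against 366 and 317 in the same libraries. The window sum is thus not the sum of the first 22 IDs. Without ID 30 the window was at -0.47 (edgeR adjusted p = 0.136), with ID 23 still in it. The NO09 window was at -1.20 ± 0.34 (SE; adjusted p = 0.201, edgeR). The likelihood ratio test called both sums (edgeR adjusted p = 0.0211 for NO30 and 9.39e-06 for NO09), and the fit with a replicate block called that of NO09 (edgeR adjusted p = 0.0309).

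**Figure D3:**
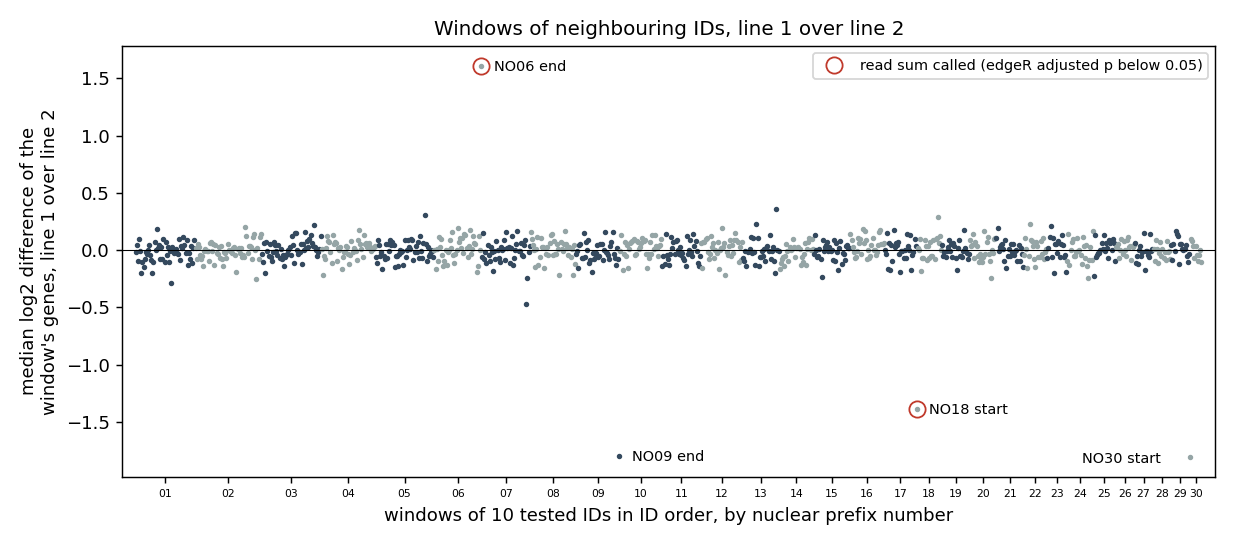
Median log2 difference, line 1 over line 2, of the genes in each of the 964 windows, in ID order by nuclear prefix (alternating shades). The last window of NO06 lies at 1.61 and the first of NO18 at -1.38, both circled as called on their read sums, while those of NO09 and NO30 lie at -1.79 and -1.81 and were not called by the quasi-likelihood test.

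Runs of consecutive tested IDs whose lines did not overlap gave the same 4 places. They use the same genes and libraries as the windows, so they are a second description and no separate support. Low IDs at these ends could pass the filter through the higher line alone, and some IDs in the NO18 and NO30 runs share reads. Line 1 was above in 24.4% of all tested genes and below in 25.4%, 4808 genes in all, so short runs were common. Of 3361 runs, 26 held 5 or more IDs, and 4 of these had a median beyond 1 on the log2 scale. They were the first 8 tested IDs of NO18 and of NO30, and 5 IDs each near the end of NO06 and of NO09. The other 22 runs had absolute medians from 0.11 to 0.50.

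The first 22 IDs of NO30 were low in line 1, while line 2 was at about the WT level. They summed to 9.47 and 7.58 CPM in line 1, 26.1 and 26.9 CPM in line 2, with 24.7 and 29.3 CPM in WT. Line 1 was thus at 32.2% of line 2, and line 2 at 98.1% of WT. All 8 tested IDs lay below 0, from -2.86 to -0.72 with a median of -1.89. Those at places 16 (-2.86) and 18 (-1.92) share reads with each other and with place 17, so the 8 are not independent. Low IDs could pass the filter through line 2 alone, which favours values below 0. Place 10 had 2 and 4 reads in the line 1 libraries, against 12 and 20 in those of line 2. The stretch was set from these values, so its counts are no test. By edgeR and limma-voom 0 of the 8 were called, with 7 at an unadjusted p below 0.05 in edgeR, against 17% of all tested genes. The likelihood ratio test called 6, and DESeq2 gave none of them an adjusted p. The most abundant of them, at place 15, had 71 and 57 reads in the line 1 libraries, against 170 and 145 in those of line 2 and 181 and 202 in WT, giving a log2 difference of -1.36 ± 0.22 (SE; adjusted p = 0.0708, edgeR). The 14 IDs that did not pass the filter summed to 1.79 and 1.26 CPM in line 1, 3.69 and 5.94 CPM in line 2, with 3.94 and 5.29 CPM in WT. Of the 10 IDs after the stretch 4 were tested, with a median of 0.07 and values from -0.11 to 0.55.

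The last 21 IDs of NO09 were lower in line 1 as well, with line 2 nearer to WT. They summed to 12.4 and 8.31 CPM in line 1, 22.6 and 27.3 CPM in line 2, with 28.8 and 39.4 CPM in WT. Line 1 was at 41.4% of line 2, and line 2 at 73.2% of WT. All 8 tested IDs lay below 0, from -4.08 to -0.86 with a median of -1.73. Here too low IDs could pass the filter through line 2 alone. Place 9 had 1 and 0 reads in the line 1 libraries, against 10 and 10 in those of line 2. This stretch was also set from its values, so its counts are no test. By edgeR and limma-voom 0 of the 8 were called, with 6 at an unadjusted p below 0.05 in edgeR, against 17% of all tested genes. The likelihood ratio test called 6, and DESeq2 gave none of them an adjusted p. The most abundant, at place 13, had 97 and 61 reads in the line 1 libraries, against 125 and 149 in those of line 2 and 186 and 235 in WT, giving a log2 difference of -0.86 ± 0.25 (SE; adjusted p = 0.159, edgeR). The called NO09 gene above is not among these IDs and differed in the other direction. The 10 IDs before the stretch, 5 tested, had a median of -0.09 and values from -0.11 to 0.11.

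The 4 ends were set from these same values, so a gathering of large differences in them is built in. Each end held 8 of the 9654 tested genes. Together the ends held 27 of the 76 genes that differed more than 2-fold, 7 higher and 20 lower in line 1, and 6 of these were called. Elsewhere 49 genes differed more than 2-fold, 29 higher and 20 lower, and 3 were called. Beyond the ends, 2 of these 49 genes reached 20 CPM. The borders of the ends were set from the values too, so low differences just outside them are no test. Of the 27 tested IDs among the 10 next to each end, edgeR's quasi-likelihood test and limma-voom called 0. The likelihood ratio test called 2 of these 27, and DESeq2 called 2 and gave 8 no adjusted p. An unadjusted p below 0.05 in edgeR was found for 5 of the 27, against 17% of all tested genes.

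**Figure D4:**
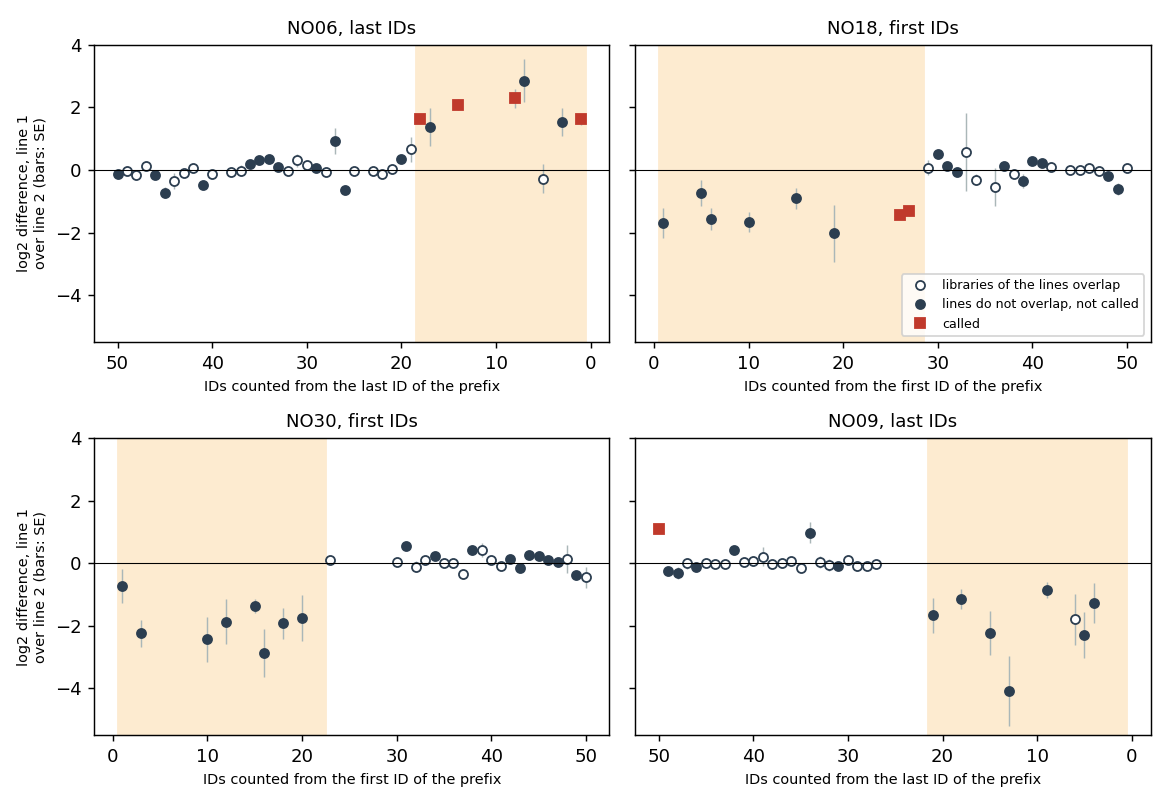
Log2 difference, line 1 over line 2, of tested IDs within 50 IDs of the end or start of 4 prefixes, with bars of 1 SE; shading marks the described stretches, squares the called genes, filled circles lines that do not overlap, and open circles lines that do. Genes in the shading lie above 0 in NO06 (1 exception) and below 0 in the other prefixes, and the 10 IDs next to each shaded stretch have medians from -0.09 to 0.08. The borders of the shading were set from these values.

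Among genes of at least 20 CPM, the small differences between the lines ran parallel to the difference between the WT libraries. The WT libraries share no library with the lines, but they share numbers in the column names. WT replicate 1 carries the number of line 1 replicate 2, and WT replicate 2 that of line 2 replicate 2. The line difference thus holds the same pair of column numbers as the WT ratio, in the same direction. Across 7104 such genes with reads in both WT libraries, the log2 difference of line 1 over line 2 correlated with the log2 ratio of WT replicate 1 over replicate 2 (Pearson r = 0.661, Spearman rho = 0.63, across genes, which are not independent replicates). Of 117 genes more than 2-fold higher in WT replicate 1, 113 were higher in line 1, and of 173 genes more than 2-fold lower there, 167 were lower in line 1. Their median line differences were 0.36 and -0.39. Where the WT replicates were within 0.1 on the log2 scale, 837 of 1553 genes were higher in line 1 and 716 lower. The 7 called genes among them had WT ratios from -1.42 (the gene of NO05) to 0.47 (that of NO08), and NO06G04580, also above 20 CPM, has no WT ratio because WT had 0 reads. What sets the WT libraries apart was not tested, nor was whether the parallel follows the column numbers.

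**Figure D5:**
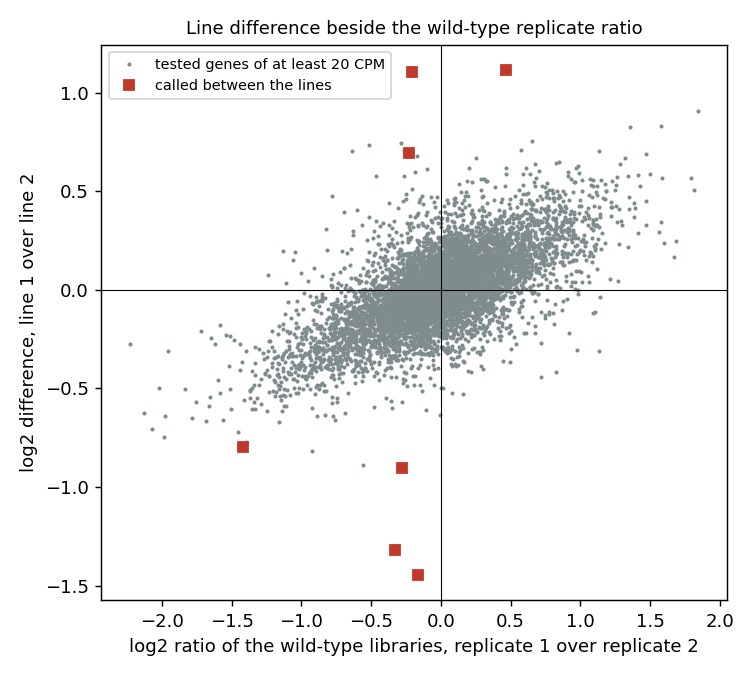
Log2 difference of line 1 over line 2 (up) against the log2 ratio of WT replicate 1 over replicate 2 (across) for 7104 genes of at least 20 CPM with reads in both WT libraries, which leaves out NO06G04580. The genes form a rising band (Pearson r = 0.661), and the 7 called genes drawn (squares) lie between -1.45 and 1.12 on the upright axis.

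The most abundant transcripts differed little. The 50 genes with the highest mean TPM over the knockout libraries, from 1540 to 4850 TPM, made up 12.3% of all TPM. Their log2 differences lay between -0.43 and 0.39 with an SD of 0.20. Line 1 was above line 2 without overlap in 21 of the 50, against 24.4% of all tested genes, and below in 4, against 25.4%. That made 25 of 50 in all, against 49.8% of all tested genes. Of the 50, edgeR and limma-voom called 0 and DESeq2 1, with 6 at an unadjusted p below 0.05 in edgeR, against 17% of all tested genes.

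Organelle genes, the only IDs with symbols, showed no called difference. Plastid genes took 0.00933% and 0.0161% of all reads in the line 1 libraries, 0.0115% and 0.0114% in those of line 2 and 0.0119% and 0.0115% in WT. Of 125 plastid genes 20 passed the filter, 15 above 0 and 5 below with a median of 0.12, and of 35 mitochondrial genes 7 passed, 4 above and 3 below with a median of 0.03. By edgeR and limma-voom 0 of the 27 were called and 0 had an unadjusted p below 0.05 in edgeR, while DESeq2 gave 26 of them no adjusted p. By edgeR 0 of 15 families of summed reads were called (smallest adjusted p = 0.937). Leaving out line 1 replicate 1 gave 2 called families, and leaving out line 1 replicate 2 gave 1.

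Among plastid genes, psbA, which encodes the D1 protein of the photosystem II reaction centre, had the most reads. It had 330 and 1227 reads in the line 1 libraries, against 604 and 472 in those of line 2 and 421 and 387 in WT, so line 1 replicate 2 stood above every other library and replicate 1 below all of them. Its log2 difference of 0.45 ± 0.84 (SE; adjusted p = 0.844, edgeR) was smaller than its standard error. The gene of its partner D2, psbD, had 45 and 35 reads in the line 1 libraries, against 24 and 22 in those of line 2 and 58 and 37 in WT, giving a log2 difference of 0.73 ± 0.35 (SE; adjusted p = 0.329, edgeR). For tufA, the plastid elongation factor Tu, the reads numbered 270 and 312 in the line 1 libraries, against 252 and 278 in those of line 2 and 291 and 267 in WT, giving a log2 difference of 0.07 ± 0.14 (SE; adjusted p = 0.847, edgeR). The chaperone gene dnaK had 125 and 110 reads in the line 1 libraries, against 59 and 114 in those of line 2 and 286 and 161 in WT, giving a log2 difference of 0.37 ± 0.29 (SE; adjusted p = 0.545, edgeR).

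For rbcL, the large subunit of the carbon-fixing enzyme Rubisco, the reads numbered 32 and 39 in the line 1 libraries, against 27 and 39 in those of line 2 and 47 and 36 in WT. The photosystem I gene psaB had 34 and 71 reads in the line 1 libraries, against 49 and 48 in those of line 2 and 46 and 52 in WT. Among mitochondrial genes cox1, a subunit of cytochrome c oxidase, had the most reads, with 40 and 61 in the line 1 libraries, against 50 and 47 in those of line 2 and 39 and 38 in WT. The lines overlapped in each of these 3 genes. Their log2 differences were 0.04 ± 0.34 for rbcL, 0.04 ± 0.35 for psaB and -0.01 ± 0.30 for cox1 (SE). At these read numbers the standard errors of the named organelle genes ran from 0.14 to 0.84.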

How the data were processed

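The members, windows, stretches and gene families were chosen with earlier results of these data known. The authors deposited expected counts per gene, of which 20.1% were not whole, and a TPM table for the same libraries. STAR and edgeR stand in the submitters' processing notes without versions, while counter, genome build and annotation are not given in the sources used here. Such counts divide reads among genes of shared sequence or overlap, and sharing was traced where non-whole counts of IDs within 10 of each other added to whole numbers (tolerance 0.0035).

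Expected counts were rounded and tested with edgeR 4.0.16 in R 4.3.3 (TMM factors, default group filter, robust quasi-likelihood, 2 residual degrees of freedom, Benjamini-Hochberg) on the 4 knockout libraries, with no replicate block. WT was put on the same scale. Window and family sums were rows with the library sizes and factors of the gene fit, each adjusted over its own kind. Standard errors come from the test statistic. The code was tested on simulated data. By rule, the text names the 2 genes with the largest called difference in each direction among those of at least 5 CPM without overlap. Other called genes are given by position, and zero-read and stretch genes were chosen after their values were seen. Of the 160 organelle symbols 157 matched a RefSeq table of the species, and 0 nuclear IDs did. Alternatives were other scalings, filters, thresholds and window sizes, DESeq2 1.42.0, limma 3.58.1 (voom, and log2 TPM with 1 or 0.1 added), the likelihood ratio test, WT in the fit, a replicate block and leaving out each library. Merging genes that share reads was added after the data were seen.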

Additional observations from a re-analysis of the deposited data

How the results depend on the processing

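The 12 calls between the lines were 12 with RLE or upper-quartile factors, without the filter, without the robust option and with limma-voom, 10 with a 5 CPM filter and 11 with shared reads merged. They were 156 with DESeq2 (8 shared, 2621 genes without an adjusted p), 398 with the likelihood ratio test, 40 at an adjusted p below 0.1, 4 with log2(TPM + 1), 1 with log2(TPM + 0.1), 0 with all 6 libraries, and from 16 to 1505 without 1 library. The 2 windows were 2 with RLE factors, limma-voom, 5 IDs per window or counting from the last ID, 3 at an adjusted p below 0.1, 1 (that of NO06) without the top gene and with whole counts, 28 with the likelihood ratio test, and 0 with 20 IDs per window, upper-quartile factors or all 6 libraries. They ranged from 4 to 347 without 1 library. Organelle families ranged from 0 to 2 without 1 library and were 0 otherwise. The replicate block raised the calls to 1346 genes and 230 windows, with 1 residual degree of freedom. The labels do not pair the replicates. The block and the pairs below followed the title numbers, which set column number 2 of line 1 beside column number 3 of line 2. Replicate 1 carries the number 1 in the column names of both lines, while WT replicate 1 carries the number 2 and WT replicate 2 the number 3. Libraries of equal title number may share nothing, and what they share was not tested. Deviations of equal title numbers correlated at 0.402 across genes, with 2 pairs only. The named genes and windows kept their direction under every alternative run. All 4 named genes missed the threshold with all 6 libraries (edgeR adjusted p = 0.252 to 0.599) and on log2 TPM, and were called without each library. DESeq2 gave NO06G04620 no adjusted p. The cause of these shifts was not tested. Genes at the NO30 and NO09 ends and most organelle genes had few reads.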
